A study of Zea mays with 12 samples.

Results

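In developing maize seeds, 23 of 44146 nuclear gene models were more than 4-fold higher in the *zmmsh7-2* mutant than in wild type at both 7 and 14 days after pollination (DAP). They were chosen from the read counts themselves. Each count was divided by the column total of its library and multiplied by 1000000 to give CPM, which was averaged within a group. An identifier was kept where both mutant groups reached at least 2 CPM and the ratio of wild type to mutant was at most 0.25 at each stage. The genotype difference is therefore a property of the selection and is described here without a test. Wild type and a CRISPR line labelled as a knockout of MSH7 were each sampled as whole seed at both ages, and each of the 4 groups holds 3 libraries. The genotype codes in the labels are AA for wild type and aa for the mutant. The labels do not say how many edited lines, ears or plants were used. The p-values therefore reflect the variation among these libraries, part or all of which may be technical.

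MSH7 is a plant-specific homolog of bacterial MutS. In plants it takes part in recognising mismatched bases in DNA, the first step of mismatch repair, and it also influences recombination at meiosis. A maize seed at 7 DAP is dominated by endosperm that has become cellular and is still dividing, while at 14 DAP the endosperm fills with starch and storage protein and the embryo has formed its first leaf primordia. Maternal pericarp is part of the same sample at both ages. In whole seeds, more cells of a type and more RNA per cell cannot be told apart.

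Neither the count tables nor the reference table of names pairs any of the 23 identifiers, or any other nuclear gene model, with a symbol, so no product or role is given for them. For the same reason neither MSH7 nor tissue markers could be looked up, and other mismatch repair genes are not analysed here. Total counts lay between 16854595 and 21932590 per library. CPM is not corrected for transcript length, so levels are compared between libraries and not between genes.

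Of the 18586 nuclear identifiers with at least 2 CPM in both mutant groups, 104 met the ratio at 7 DAP, 79 met it at 14 DAP and 23, or 0.124%, met it at both. The same rule applied in the opposite direction, with wild type at least 2 CPM and the mutant at most 0.25 of wild type, held for 90 identifiers. Of the 81 that met the ratio at 7 DAP only, 62 were also higher in the mutant at 14 DAP, with a median ratio of mutant to wild type of 2.12 there. Another 7 were lower (edgeR adjusted p below 0.05) and 12 were not called or not tested. Of the 56 that met it at 14 DAP only, 44 were also higher at 7 DAP, 7 were lower and 5 were not called or not tested. Over all tested genes 31.7% were higher and 32.1% lower at 14 DAP, and 35.5% and 35.6% at 7 DAP. The required 2 CPM in both mutant groups applied to the 81 and the 56 but not to all tested genes. Just inside the limit were Zm00001d049640 and Zm00001d039789, whose larger ratios of wild type to mutant were 0.244 and 0.242. Just outside were Zm00001d030988 at 0.258 and Zm00001d042460 at 0.260.

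All 23 members passed the count filter at both stages, although all 3 wild-type libraries reached its minimum of 10 counts for only 15 of them at 7 DAP and for 11 at 14 DAP. In every member the lowest mutant library lay above the highest wild-type library at both stages. Over all tested genes this held for 40.3% at 7 DAP and 41.0% at 14 DAP. The genotype fits were run for the shares over all tested genes, of which 35.5% were called higher at 7 DAP and 31.7% at 14 DAP. They called all 23 members higher at both stages, but this is not a test of the members. These counts follow from the selection.

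**Figure D1:**
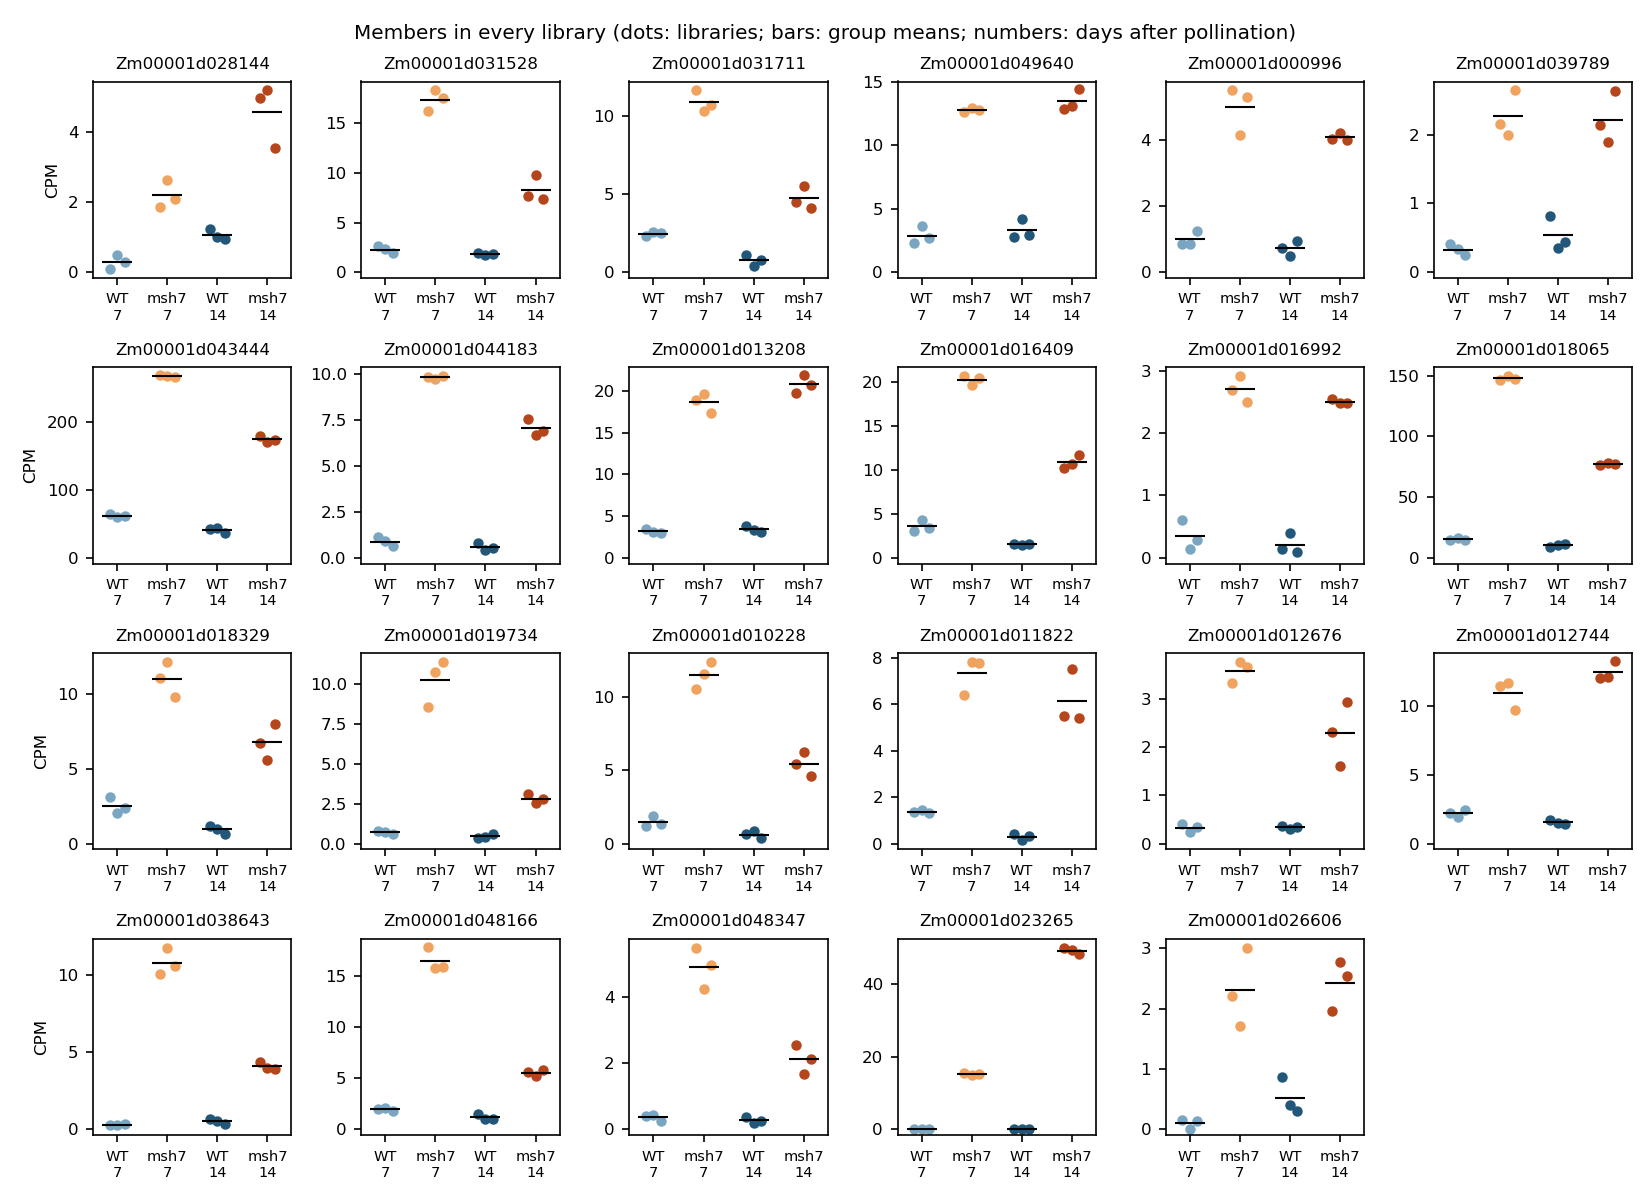
CPM over column totals (linear axis, a scale for each panel) of the 23 members in the 12 libraries, with the group mean as a bar. In every panel the mutant libraries at 7 and 14 DAP stand above the wild-type libraries of the same stage, and Zm00001d023265 has 0 counts in all wild-type libraries.

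Zm00001d023265 was the single member with no count in any wild-type library. In the mutant it stood at 15.5, 14.97 and 15.2 CPM at 7 DAP and at 49.96, 49.2 and 48.2 CPM at 14 DAP. The 3 libraries of each mutant group lay close together, and the groups were far apart. Against a floor of 3 counts per wild-type library, the mutant was at least 103.5-fold higher at 7 DAP and at least 339.65-fold higher at 14 DAP. Every other member was detected in wild type at both stages, from 6 counts summed over the 3 libraries upwards at 7 DAP and from 13 upwards at 14 DAP.

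Among the 22 members with wild-type counts, the ratio of mutant to wild-type mean CPM ran from 4.31 to 34.8 at 7 DAP, with a median of 7.61, and from 4.10 to 20.4 at 14 DAP, with a median of 6.52. It was larger at 7 DAP for 12 members and at 14 DAP for 10. The 95% counting intervals given with ratios are exact, from counts summed over 3 libraries, and cover counting error only. Differences in ratio between the stages are described and were not tested, because the ratios chose the members.

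The largest ratio at 7 DAP among these 22 was in Zm00001d038643, at 0.304, 0.288 and 0.339 CPM in wild type and 10.03, 11.8 and 10.6 CPM in the mutant. Its ratio there was 34.8 (95% counting interval 21.98 to 57.9). At 14 DAP its wild-type libraries stood at 0.684, 0.548 and 0.345 CPM and its mutant libraries at 4.39, 3.99 and 3.90 CPM, a ratio of 7.79 (5.33 to 11.4). The smaller ratio at 14 DAP thus came with both a lower mutant level and a higher wild-type level. In Zm00001d026606 it came with a higher wild-type level, since the mutant means were 2.31 ± 0.65 CPM at 7 DAP and 2.42 ± 0.42 CPM at 14 DAP, while wild type had 6 counts in all at 7 DAP and 33 at 14 DAP (SD, n = 3 each). Its ratio was 23.3 (10.7 to 66.0) at 7 DAP and 4.65 (3.15 to 6.98) at 14 DAP. For Zm00001d019734 it came with a lower mutant level: the mutant stood at 8.56, 10.8 and 11.4 CPM at 7 DAP and at 3.14, 2.53 and 2.79 CPM at 14 DAP, while wild type stood at 0.760, 0.719 and 0.630 CPM and at 0.365, 0.399 and 0.591 CPM. The lower wild-type CPM at 14 DAP was not called with TMM factors (log2 change −0.32, SE 0.36, edgeR adjusted p = 0.405). Its ratios were 14.6 (10.7 to 20.3) and 6.25 (4.15 to 9.67).

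Zm00001d011822 had the largest ratio at 14 DAP among these 22, at 20.4 (95% counting interval 12.8 to 34.2) against 5.35 (4.21 to 6.81) at 7 DAP. Its mutant libraries stood at 6.41, 7.83 and 7.76 CPM at 7 DAP and at 5.52, 7.53 and 5.42 CPM at 14 DAP, and these overlapped. Its wild-type libraries stood at 1.37, 1.44 and 1.31 CPM at 7 DAP and at 0.410, 0.150 and 0.345 CPM at 14 DAP, with no overlap. The difference in ratio thus lay in wild type, where 19 counts remained at 14 DAP. Zm00001d044183 had ratios of 11.1 (8.45 to 15.1) and 12.1 (8.47 to 17.1).

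Zm00001d031528 stood at 2.58, 2.30 and 1.94 CPM in wild type and 16.3, 18.4 and 17.5 CPM in the mutant at 7 DAP, and at 1.96, 1.69 and 1.82 CPM and 7.71, 9.77 and 7.39 CPM at 14 DAP. Its ratios were 7.65 (95% counting interval 6.40 to 9.20) and 4.54 (3.71 to 5.64), and the mutant libraries of the stages did not overlap. Zm00001d012744 stood at 2.23, 1.92 and 2.47 CPM in wild type and 11.4, 11.7 and 9.72 CPM in the mutant at 7 DAP, and at 1.73, 1.495 and 1.43 CPM and 12.04, 12.2 and 13.3 CPM at 14 DAP. Its ratios were 4.97 (4.11 to 6.02) and 8.05 (6.49 to 10.04). The lower wild-type CPM at 14 DAP was not called as a change between stages with TMM factors, where the libraries overlapped (log2 change −0.18, SE 0.20, edgeR adjusted p = 0.397). With library totals as the only scaling it was called (log2 change −0.50, SE 0.20, edgeR adjusted p = 0.0185). In Zm00001d018329 both genotypes were lower at 14 DAP: wild-type means were 2.49 ± 0.55 and 0.941 ± 0.28 CPM, and mutant means 11.03 ± 1.2 and 6.77 ± 1.2 CPM, at 7 and 14 DAP (SD, n = 3 each).

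Of the other members, Zm00001d013208 (5.88 and 6.11), Zm00001d049640 (4.45 and 4.10), Zm00001d000996 (5.03 and 5.67) and Zm00001d010228 (7.93 and 8.87) had ratios at 7 and 14 DAP that lay close together. The lowest mutant levels were close to the selection limit of 2 CPM: at 7 DAP Zm00001d028144, Zm00001d039789, Zm00001d026606 and Zm00001d016992 had means of 2.197 to 2.70 CPM, and at 14 DAP Zm00001d048347, Zm00001d039789, Zm00001d012676, Zm00001d026606, Zm00001d016992 and Zm00001d019734 had means of 2.11 to 2.82 CPM. In Zm00001d016992 the wild-type libraries held 0.608, 0.144 and 0.291 CPM at 7 DAP and 0.137, 0.399 and 0.0985 CPM at 14 DAP, from 21 and 13 counts. Its ratios of 7.78 (4.96 to 13.1) and 11.8 (6.79 to 23.1) have accordingly wide intervals.

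**Figure D2:**
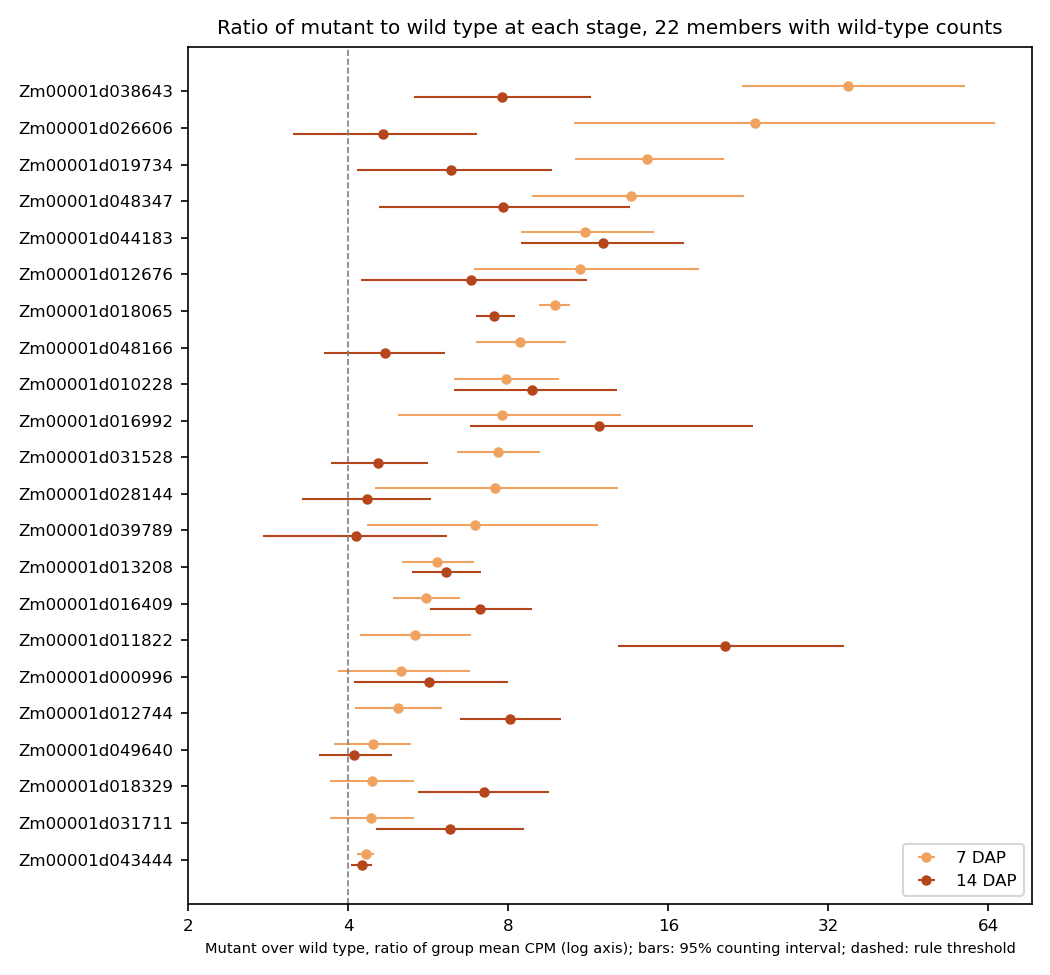
Ratio of mutant to wild-type group mean CPM (log axis) for the 22 members with wild-type counts, at 7 DAP and at 14 DAP, with 95% counting intervals as bars and the selection limit of 4 as a dashed line. Zm00001d038643 and Zm00001d026606 have the largest ratios at 7 DAP and Zm00001d011822 the largest at 14 DAP.

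Zm00001d043444 and Zm00001d018065 supplied most of the counts. They held 66.8% of the summed counts of the 23 members in the mutant at 7 DAP and 58.5% at 14 DAP. Zm00001d043444 stood at 64.6, 60.2 and 60.8 CPM in wild type and at 268, 267 and 265 CPM in the mutant at 7 DAP. At 14 DAP it stood at 42.9, 43.4 and 36.6 CPM in wild type and at 178, 171 and 173 CPM in the mutant. Its ratios of 4.31 (95% counting interval 4.16 to 4.47) and 4.25 (4.06 to 4.43) were the most precisely measured of the list and lay close to each other and to the selection limit. Zm00001d018065 stood at 14.6, 16.2 and 14.5 CPM in wild type and at 146, 150 and 148 CPM in the mutant at 7 DAP. At 14 DAP it stood at 8.98, 10.4 and 11.4 CPM in wild type and at 76.5, 77.9 and 77.1 CPM in the mutant. Its ratio was 9.78 (9.12 to 10.5) at 7 DAP and 7.54 (6.96 to 8.23) at 14 DAP. The other 21 members summed to 28.5 ± 1.28 CPM in wild type and 206 ± 2.03 CPM in the mutant at 7 DAP, and to 20.6 ± 2.23 and 178 ± 2.04 CPM at 14 DAP (SD, n = 3 each). Replicates of the mutant had a median coefficient of variation of 7.59% over the members at 7 DAP and 6.77% at 14 DAP.

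How the members changed between the stages was tested within each genotype, in a fit of all 12 libraries, because the selection did not use that contrast. The same libraries nevertheless supplied the levels that chose the members. The selection also required 2 CPM at both stages in the mutant, which leaves out genes that are off at either age. Each stage came as its own deposited table, and stage and any batch of those tables cannot be told apart. In the mutant 5 members rose and 11 fell from 7 to 14 DAP, and 7 were not called (edgeR adjusted p below 0.05). Over all 25344 tested genes 39.3% rose and 39.6% fell, and over the 18586 with at least 2 CPM in both mutant groups 42.6% rose and 40.1% fell. By TMM-scaled CPM, every 14 DAP library lay above every 7 DAP library for 6 members, against 39.7% of tested genes, and below for 12, against 39.9%. The median log2 change was −0.33 for the members and −0.01 for all tested genes. These values use TMM factors, which balance the bulk of genes between libraries. With library totals as the only scaling, 2 members rose and 13 fell, against 7202 and 13182 of the 25344 tested genes. The median of all genes then moved to −0.30.

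The largest fall in the mutant was in Zm00001d019734, with a log2 change of −1.58 (SE 0.16, edgeR adjusted p = 9.48e-16). Zm00001d048166 stood at 17.8, 15.8 and 15.9 CPM at 7 DAP and at 5.58, 5.25 and 5.77 CPM at 14 DAP, a log2 change of −1.29 (SE 0.12, edgeR adjusted p = 1.37e-18). Zm00001d038643 had a log2 change of −1.11 (SE 0.15, edgeR adjusted p = 6.72e-11). These 3 were the members that fell more than 2-fold with TMM factors. By mean CPM over library totals, Zm00001d031528, Zm00001d010228, Zm00001d031711 and Zm00001d048347 were also more than 2-fold lower at 14 DAP, by 2.10-fold to 2.32-fold. Smaller falls were those of Zm00001d048347 (log2 change −0.94, SE 0.22), Zm00001d031711 (−0.91, SE 0.14), Zm00001d010228 (−0.79, SE 0.14), Zm00001d031528 (−0.77, SE 0.11), Zm00001d018065 (−0.65, SE 0.04) and Zm00001d016409 (−0.61, SE 0.10). Zm00001d018329 (−0.42, SE 0.13) and Zm00001d043444 (−0.33, SE 0.03) fell least among those called. The call of Zm00001d018329 was lost without mutant replicate 2 of 14 DAP (log2 change −0.30, edgeR adjusted p = 0.0589).

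The largest rise in the mutant was in Zm00001d023265, with a log2 change of 1.98 (SE 0.07, edgeR adjusted p = 6.43e-48). Zm00001d028144 was the other member that rose more than 2-fold. It stood at 1.86, 2.63 and 2.10 CPM at 7 DAP and at 4.98, 5.20 and 3.55 CPM at 14 DAP, a log2 change of 1.35 (SE 0.22, edgeR adjusted p = 2.36e-08). The mutant libraries of the stages did not overlap in either gene. Smaller rises were those of Zm00001d012744 (log2 change 0.48, SE 0.11), Zm00001d013208 (0.45, SE 0.09) and Zm00001d049640 (0.36, SE 0.10). With library totals as the only scaling these 3 kept their sign and lost their call, with log2 changes of 0.19, 0.16 and 0.076. The members closest to no change were Zm00001d000996 (−0.01, SE 0.18), Zm00001d011822 (0.04, SE 0.15), Zm00001d016992 (0.18, SE 0.24) and Zm00001d044183 (−0.19, SE 0.13). Zm00001d039789 (0.25, SE 0.25), Zm00001d026606 (0.36, SE 0.26) and Zm00001d012676 (−0.36, SE 0.23) were also not called. Zm00001d012676 was called without mutant replicate 3 of 14 DAP (−0.60, edgeR adjusted p = 0.0377). With library totals as the only scaling, Zm00001d044183 (−0.48, edgeR adjusted p = 0.00065) and Zm00001d012676 (−0.65, edgeR adjusted p = 0.0068) were called as falling. By TMM-scaled CPM, the 14 DAP mutant libraries of Zm00001d044183 lay below those of 7 DAP, and those of Zm00001d016992 lay above.

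In wild type, where the members are low by selection, 22 could be followed. Of these 6 rose, 7 fell and 9 were not called. Over all tested genes 40.8% rose and 39.8% fell, and over those with at least 2 CPM in both mutant groups 43.4% and 41.1%. The fit of all 12 libraries kept members that passed the count filter only through their mutant libraries, high by selection. In a fit of the 6 wild-type libraries alone, 16 members passed the filter, of which 3 rose and 7 fell. Over the 24443 genes tested there, 9953 rose and 10010 fell. By TMM-scaled CPM, every 14 DAP library lay above every 7 DAP library for 5 members, against 41.0% of tested genes, and below for 7, against 39.9%. With library totals only in the fit of all 12 libraries, 2 rose and 9 fell, against 7480 and 13242 of 25344 tested genes. The median log2 change of the 22 was −0.22, and that of all tested genes was 0.01. The largest rise was in Zm00001d026606 (log2 change 2.66, SE 0.59, edgeR adjusted p = 2.63e-05), from 6 to 33 counts over 3 libraries. Its wild-type libraries of 14 DAP held 19, 8 and 6 counts, and it was tested only because its mutant libraries passed the filter. The same held for Zm00001d039789 (18, 7 and 9 counts) and Zm00001d038643 (15, 11 and 7 counts), which were also called as rising. Zm00001d028144 rose by a log2 change of 2.14 (SE 0.38, edgeR adjusted p = 3.34e-07), from 18 to 66 counts. The largest fall was in Zm00001d011822 (−1.83, SE 0.35, edgeR adjusted p = 1.02e-06), followed by Zm00001d031711 (−1.36, SE 0.25), Zm00001d018329 (−1.07, SE 0.24) and Zm00001d010228 (−0.93, SE 0.29). Wild-type replicate 1 of 14 DAP decided several of these small values. Without it 3 members rose in place of 6, the calls of Zm00001d038643 (0.81), Zm00001d039789 (0.57), Zm00001d013208 (0.33) and Zm00001d018065 (−0.17) were lost, and Zm00001d048166 (−0.64) was called. The call of Zm00001d039789 was also lost without wild-type replicate 3 of 7 DAP (0.86), and that of Zm00001d049640 without wild-type replicate 1 of 7 DAP (0.37) or replicate 2 of 14 DAP (0.28).

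The genotypes were set side by side for the stage change, since these contrasts share no library. Of the members, 6 fell in both genotypes, against 31.5% of all tested genes, and 3 rose in both, against 32.6%. The 6 were Zm00001d031711, Zm00001d043444, Zm00001d016409, Zm00001d018065, Zm00001d018329 and Zm00001d010228, and the 3 were Zm00001d028144, Zm00001d049640 and Zm00001d013208. Another 4 fell in the mutant and were not called in wild type. Over all tested genes 39.6% fell in the mutant, whatever their call in wild type, and 31.5% fell in both. The share that fell in the mutant and was not called in wild type was not counted. Zm00001d038643 was the 1 member called in opposite directions, as were 4.53% of all tested genes. It fell in the mutant and rose in wild type (log2 change 1.07, SE 0.41, edgeR adjusted p = 0.0128), where it rests on 19 counts at 7 DAP and 33 at 14 DAP. Its wild-type change was tested only because its mutant libraries, high by selection, passed the count filter. A call in a single genotype is not evidence that the genotypes differ, and that difference was not tested because it is made of the contrasts that chose the members.

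**Figure D3:**
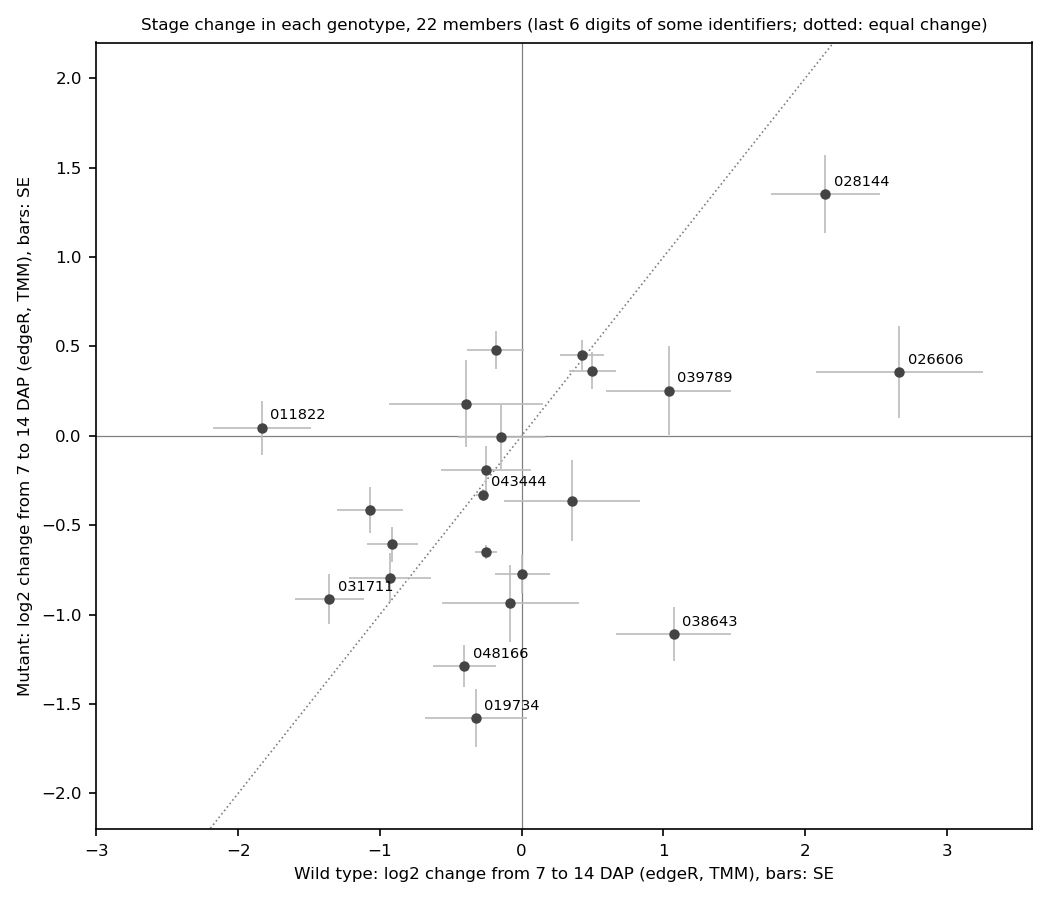
Log2 change from 7 to 14 DAP in wild type (horizontal axis) and in the mutant (vertical axis) for the 22 members with wild-type counts, from the edgeR fit, with SE as bars and equal change as a dotted line. Zm00001d028144 rose in both genotypes, Zm00001d038643 lies at 1.07 in wild type and −1.11 in the mutant, and Zm00001d011822 and Zm00001d026606 lie near no change in the mutant and far from it in wild type.

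The place of the members was read from the order of the deposited rows, since no coordinates of the build used for the counts were at hand. The rows are not sorted by identifier number, and 2247 nuclear identifiers have a lower number than the nuclear identifier before them. Zm00001d000996 is the 1 member numbered far from the nuclear identifiers on both sides, between Zm00001d005969 and Zm00001d005970. No member had another within 10 nuclear identifiers, nor within 50, and the closest were Zm00001d012676 and Zm00001d012744, 63 apart. A member lay within 10 identifiers of 1.26% of the other eligible identifiers and within 50 of 5.75%, so a count of 0 among 23 is near that background. The median distance between successive members was 1302 nuclear identifiers. With the order cut into 20 equal parts, 13 parts held a member, and the fullest held 4. The first 10 parts held 9 members and the last 10 held 14, while the 18586 identifiers eligible by abundance were split 9296 and 9290.

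The 90 identifiers that met the opposite rule were split 54 and 36 over the same parts. Of these 90, 8 had another of their kind within 10 identifiers. None of the 23 members had one of the 90 within 10 identifiers, as 4.22% of the other eligible identifiers did, and the closest was 20 away, from Zm00001d048347. These shares are a description, and no test was made.

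**Figure D4:**
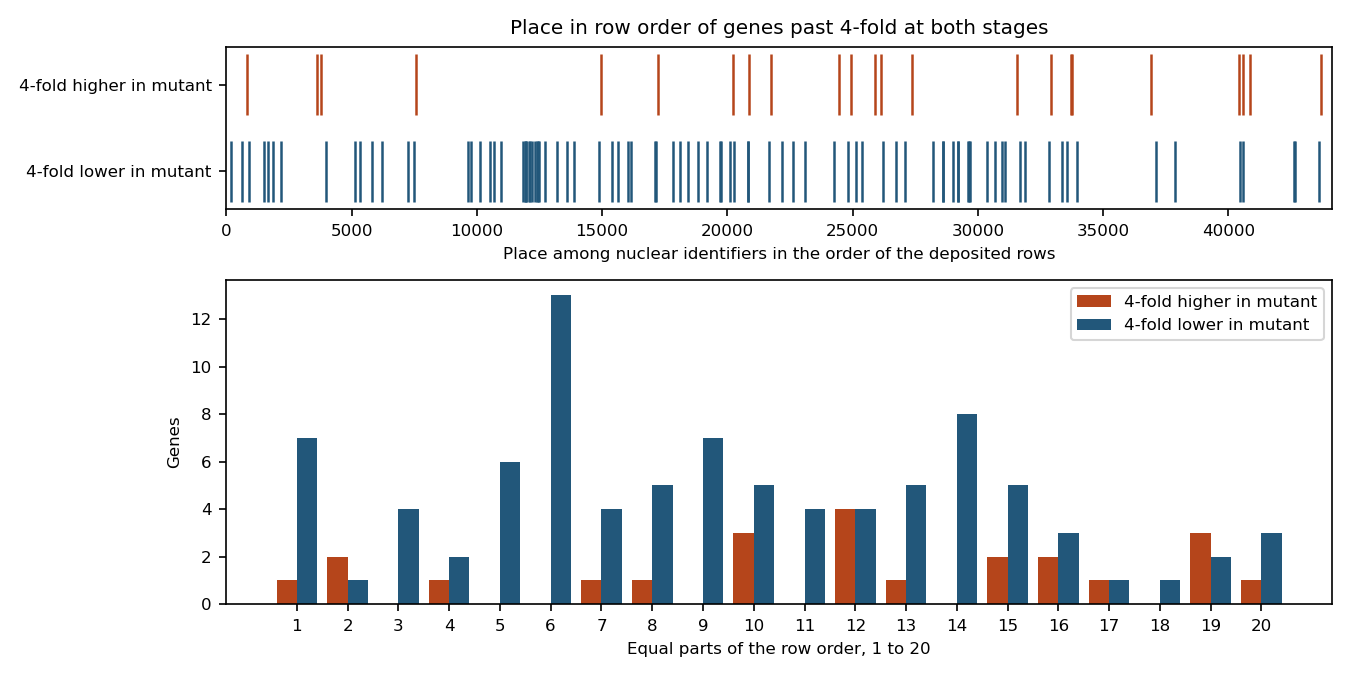
Upper panel: place of the 23 members and of the 90 identifiers that met the opposite rule along the order of nuclear identifiers in the deposited rows. Lower panel: the number of each in 20 equal parts of that order; the members occupy 13 parts and none holds more than 4, whereas the sixth part holds 13 of the identifiers lower in the mutant.

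Of the 230 nuclear identifiers within 5 places of a member, 154 were tested at 7 DAP, and these included 68 (44.2%) higher in the mutant and 45 (29.2%) lower. Over all tested genes the shares were 35.5% and 35.6%. The 153 tested at 14 DAP included 65 (42.5%) higher in the mutant and 40 (26.1%) lower, against 31.7% and 32.1%. Their median log2 difference was 0.12 at 7 DAP and 0.10 at 14 DAP, and 0.01 for all tested genes at either stage. Rises beyond 2-fold were fitted for 12 of the 154 at 7 DAP and 9 of the 153 at 14 DAP, against 1516 of 24096 and 1071 of 23811 over all tested genes. Falls beyond 2-fold were fitted for 5 and 8, against 2086 and 2149. Of the identifiers directly beside a member, 19 of 37 tested (51.4%) were higher and 12 (32.4%) lower at 7 DAP, with a median log2 difference of 0.27, and 13 of 35 (37.1%) were higher and 8 (22.9%) lower at 14 DAP, with a median of 0.06. Whether the neighbours differ from other genes was not tested.

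Some neighbours stood out, and these were chosen after their values were seen. Next to Zm00001d023265, Zm00001d023266 had the opposite pattern. It had 9, 18 and 6 counts in wild type and 0, 1 and 1 in the mutant at 7 DAP, and 21, 14 and 12 counts against 0, 0 and 1 at 14 DAP. Wild type was 15.6-fold higher at 7 DAP (95% counting interval 3.99 to 134) and 43.1-fold higher at 14 DAP (7.37 to 1739). On the other side Zm00001d023264 had log2 differences of 0.88 (SE 0.12) at 7 DAP and 0.95 (SE 0.09) at 14 DAP. It rose from 7 to 14 DAP in the mutant (log2 change 1.34, SE 0.09) and in wild type (1.26, SE 0.11).

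Beside Zm00001d044183, Zm00001d044182 had 18, 23 and 18 counts in wild type and 54, 62 and 51 in the mutant at 7 DAP. At 14 DAP none of the wild-type libraries held a count of it and the mutant libraries held 9, 8 and 12, where it was at least 3.5-fold higher against the floor of 3 counts per library. It was outside the rule both by its ratio at 7 DAP, where the mutant mean was 3.03-fold higher, and by its mutant level at 14 DAP. Zm00001d044187, 4 places on, had log2 differences of 1.66 (SE 0.27) at 7 DAP and 2.78 (SE 0.31) at 14 DAP. Zm00001d018332, 5 places from Zm00001d018329, had differences of 3.14 (SE 0.14) and 1.24 (SE 0.21). Zm00001d010231, 3 places from Zm00001d010228, had differences of 1.16 (SE 0.19) and 2.12 (SE 0.35), and Zm00001d048354, 5 places from Zm00001d048347, of 0.95 (SE 0.16) and 2.64 (SE 0.40). In the other direction, Zm00001d039795, 4 places from Zm00001d039789, had differences of −0.96 (SE 0.43) and −3.95 (SE 0.47). Others lower in the mutant were Zm00001d013212 (−1.01 and −2.11), Zm00001d023269 (−0.84 and −1.94), Zm00001d011819 (−0.95 and −1.33) and Zm00001d039790 (−1.04 and −1.13). Of all tested neighbours, 12 were higher and 5 lower beyond 2-fold at 7 DAP, and 9 and 8 at 14 DAP. Not all of them are named here. Beside Zm00001d048347, Zm00001d048348 was lower in the mutant at 7 DAP (log2 difference −2.06, SE 0.20) and higher at 14 DAP (0.93, SE 0.16). The sources used here do not say how reads that align to several places or overlap several gene models were counted.

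**Figure D5:**
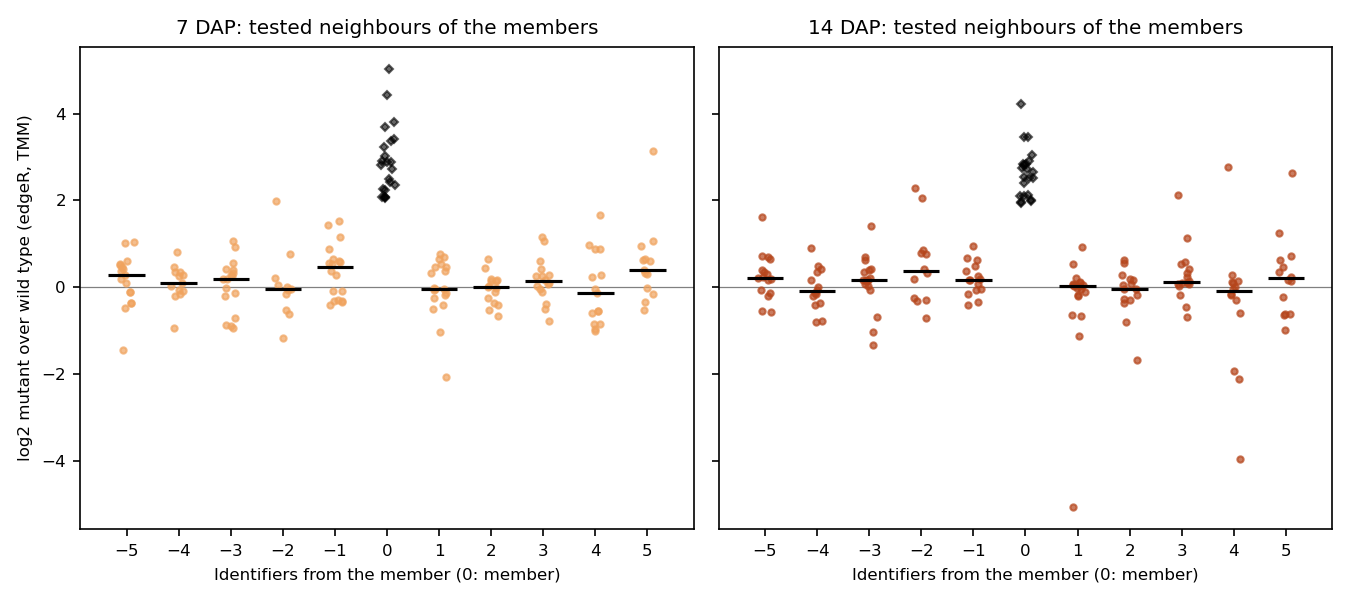
Log2 difference of mutant to wild type (edgeR, TMM) of the tested nuclear identifiers 1 to 5 places before and after each member in the row order, at 7 DAP (left) and 14 DAP (right), with the median at each place as a bar and 22 members as diamonds at 0. Zm00001d023265, with no wild-type counts, is not drawn. By selection the members lie near or above 2, and the medians of the neighbours lie below 1.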

How the data were processed

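The authors deposited whole-number read counts per gene, 1 table per stage with 6 libraries each and 46430 identifiers, without normalization. The submitters' processing notes name the build B73 RefGen_v4 and the tools DESeq2, StringTie 1.3.6, featureCounts 1.6.4, HISAT2 2.2.1 and Trimmomatic 0.39. Per the labels' protocols, libraries came from DNase-treated total RNA (NEBNext Ultra II). The sources used here give neither the strand setting, the treatment of multi-mapping reads nor the annotation release. The reference table of names (Zm-B73-REFERENCE-NAM-5.0) matched 0 nuclear identifiers, so the planned lists of mismatch repair, organelle and tissue marker genes were not run.

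Columns were matched to samples by their labels. Differences were tested in R 4.3.3 with edgeR 4.0.16 (quasi-likelihood, robust, TMM, default filter by group), on 6 libraries for genotype within a stage and on 12 for the change between stages, with Benjamini-Hochberg adjustment over all genes tested. Each SE is the absolute log2 change divided by the square root of F. The fits were tested on simulated data. Replicates differed beyond sampling noise in every pair (chi-square per degree of freedom 1.67 to 2.44). Intervals and floors cover counting error only. Alternatives included DESeq2 1.42.0.

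The members, lists and tests were chosen with earlier results of these data known. The rule for named genes took members with no wild-type counts, those with the largest and smallest stage changes and those beside the limit. It named 18 members, and the other 5 are named because every member is described. It also asked for runs of members no more than 10 identifiers apart, of which there were 0.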

Additional observations from a re-analysis of the deposited data

Results flagged for a closer look

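Zm00001d038643 changed in opposite directions between the stages in the genotypes, by log2 changes of 1.07 in wild type and −1.11 in the mutant, with no overlap between the scaled libraries of 7 and 14 DAP in either. In wild type the closest libraries of the stages, replicate 3 of each, held 7 counts each. The difference between the genotypes was not tested, since it is made of the contrasts that chose the members. The wild-type call was lost without wild-type replicate 1 of 14 DAP (0.81). It was also lost with library totals as the only scaling (0.76, edgeR adjusted p = 0.0794). The gene was tested in wild type only because its mutant libraries, high by selection, passed the count filter.

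Outside the nuclear gene models, 2284 identifiers could not be members by the rule. Those that passed the count filter were part of the fits and of the shares over all tested genes. Of the 2284, 25 had at least 2 CPM in both mutant groups, and 2 of these met the same thresholds. ENSRNA049467439 had 7, 13 and 15 counts in wild type and 112, 100 and 111 in the mutant at 7 DAP, a ratio of mean CPM of 9.83, and 2, 7 and 2 against 53, 53 and 38 at 14 DAP, a ratio of 14.2. ENSRNA049477136 lies in the row directly before Zm00001d018065. It had 102, 100 and 53 counts in wild type and 429, 387 and 402 in the mutant at 7 DAP, a ratio of 5.05, and 45, 36 and 49 against 227, 278 and 246 at 14 DAP, a ratio of 6.30. Its counts came to 27.5% ± 8.99 of those of Zm00001d018065 in wild type and 14.2% ± 0.56 in the mutant at 7 DAP, and to 20.5% ± 2.84 and 17.04% ± 0.78 at 14 DAP (SD, n = 3 each). Whether the rows share reads was not tested.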

How the results depend on the processing

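The number of members depended on the limits chosen: 13 with a ratio of at most 0.2, 62 with at most 0.33, 44 with a minimum of 1 CPM and 13 with a minimum of 5 CPM. It was 21 with TMM-scaled CPM, of which 19 were among the 23, and 21 to 25 when single libraries were left out, where 17 members were kept in every case. Of members that rose in the mutant there were 2 with library totals only, where 7202 of 25344 tested genes rose. Of those that rose in wild type there were 2 with library totals only, where 7480 of 25344 tested genes rose. There were 3 with the 6 libraries of that genotype, where fewer members passed the filter (16) and 9953 of 24443 tested genes rose. When single libraries were left out, 3 to 6 members rose in wild type. No value of a called stage change reversed. Small uncalled values changed sign. In the mutant these were Zm00001d000996 (0.0043 with the replicate block, −0.12 to 0.070 with single libraries left out), Zm00001d039789 (−0.034 with library totals), Zm00001d016992 (−0.11 with library totals) and Zm00001d011822 (−0.24 with library totals, −0.14 to 0.13 with single libraries left out). In wild type Zm00001d031528 gave −0.024 with RLE factors, −0.31 with library totals, −0.0047 with no filter, −0.028 with DESeq2, −0.00995 with the 6 libraries of that genotype and −0.099 to 0.10 with single libraries left out. With single libraries left out, Zm00001d000996 ranged from −0.38 to 0.059, Zm00001d016992 from −1.20 to 0.26 and Zm00001d048347 from −0.38 to 0.076 in wild type. The causes were not tested. Same-numbered libraries showed no shared deviation (correlations of deviations −0.026 to 0.054). Counting noise weakens such correlations, so they cannot decide whether the numbers pair the libraries. With a replicate block 5 members rose and 11 fell in the mutant, and 6 rose and 7 fell in wild type. Wild-type values of several members rest on few counts, 4 members having under 20 at each stage, which limits their ratios and stage changes.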
